A study of Naumovozyma castellii with 6 samples.

Results

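Of the 1002 Xrn1-sensitive unstable transcripts (XUTs) listed for the budding yeast Naumovozyma castellii, 168 faced an XUT on the opposite strand, and these formed 98 pairs. They hold 1596 of the 8742 open reading frames (ORFs) in the merged ribosome profiling table. An XUT counted as facing another if their spans overlapped or lay within 1000 nt of each other on the same chromosome and different strands. The span of an XUT ran from the lowest start to the highest end of its listed ORFs, so it is not the full transcript. XUTs whose span began at or below 50000, or ended within 50000 nt of the last listed position of the chromosome, were left out. This removed 123 XUTs, 34 of which faced another XUT. The comparison set is the 711 remaining XUTs that faced none, with 5817 ORFs.

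The series comprises 3 libraries of upf1 cells and 3 of wild-type cells. The upf1 strain YAM2890 has the genotype MATalpha ura3-1 ho upf1::kanMX6, and the wild-type strain YAM2478 is MATalpha ura3-1 ho, so both carry the ura3-1 and ho alleles. Cycloheximide was added for 15 min to all cultures, which had reached an optical density of 0.5 in YPD at 25 °C. The table gives a single merged value per ORF and does not separate libraries or strains. The effect of upf1 was therefore not analysed here, and no value below has a replicate error.

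XUTs are cytoplasmic noncoding RNAs that accumulate when the 5′-to-3′ exonuclease Xrn1 is missing. In Saccharomyces cerevisiae many of them run antisense to other transcripts, so that RNAs from both strands can pair, and they are targets of nonsense-mediated decay, in which the helicase Upf1 acts on translated RNA. Ribosome profiling sequences the fragments that ribosomes protect. Footprints of a translating ribosome advance in steps of 3 nt, and the deposited phase score measures this on a scale of 0 to 1. The authors' status column calls an ORF translating or not. Every called ORF in the table had at least 5 valid codons, as the authors count them, and a phase score of at least 0.323. Uncalled ORFs with as many valid codons scored 0.317 or less.

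The 98 pairs fell into 43 overlapping, 31 convergent and 24 divergent ones. In a convergent pair the partners do not overlap and their 3′ ends face each other, and in a divergent pair their 5′ ends do. Of the 168 XUTs, 143 had 1 partner, 22 had 2 and 3 had 3, and 18 belonged to more than 1 class and count in each. The plus strand held 87 of the 168 and the minus strand 81. Gaps in convergent pairs ran from 2 to 991 nt, with a median of 312 nt. Divergent gaps ran from 173 to 971 nt, with a median of 369 nt. Just inside the limit lay the convergent pair XUT0722 and XUT0723, 991 nt apart, and just outside it XUT0270 and XUT0271, 1050 nt apart. At the chromosome ends, XUT0926 was kept with 50842 nt to the nearer limit and XUT0265 left out with 46602 nt.

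The overlapping spans shared between 2 and 1663 nt, with a median of 232 nt (interquartile range 123.5 to 594.5). Of these 43 pairs, 19 were nested, with 1 span wholly inside the other. In 12 the 5′ ends lay in the shared stretch, called head to head here, and in 12 the 3′ ends did, called tail to tail. The longest shared stretch belonged to XUT0327 and XUT0326 on chromosome 2, and the next were 1184 nt in XUT0526 and XUT0525 and 1119 nt in XUT0552 and XUT0551.

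Ribosome footprints were called translating in 125 of the 1596 ORFs of facing XUTs (7.83%, Wilson 95% interval 6.61 to 9.25%), beside 6.60% of all ORFs in the table. Among XUTs facing none, 356 of 5817 ORFs were called (6.12%, 5.53 to 6.77%). The difference was 1.71 percentage points (Newcombe 95% interval 0.333 to 3.25), so the 2 shares lay close together. Counted by transcript, 64 of the 168 facing XUTs had a called ORF (38.1%, 31.1 to 45.6%), beside 27.0% of all XUTs. Of those facing none, 167 of 711 did (23.5%, 20.5 to 26.7%). This gap of 14.6 percentage points (6.89 to 22.7) was the larger of the 2. Where a call also needed 10 valid codons it was 5.38 points (-0.00991 to 12.0), and where it needed 30 reads 4.88 (-0.732 to 11.7), intervals that include 0. Facing XUTs also listed more ORFs, with a median of 8 each against 6, and longer spans, with a median of 599.5 nt against 477 nt. These intervals cover the drawing of ORFs or XUTs alone. They treat overlapping ORFs, and ORFs of 1 XUT, as independent, and the labels mention no molecular identifiers.

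**Figure D1:**
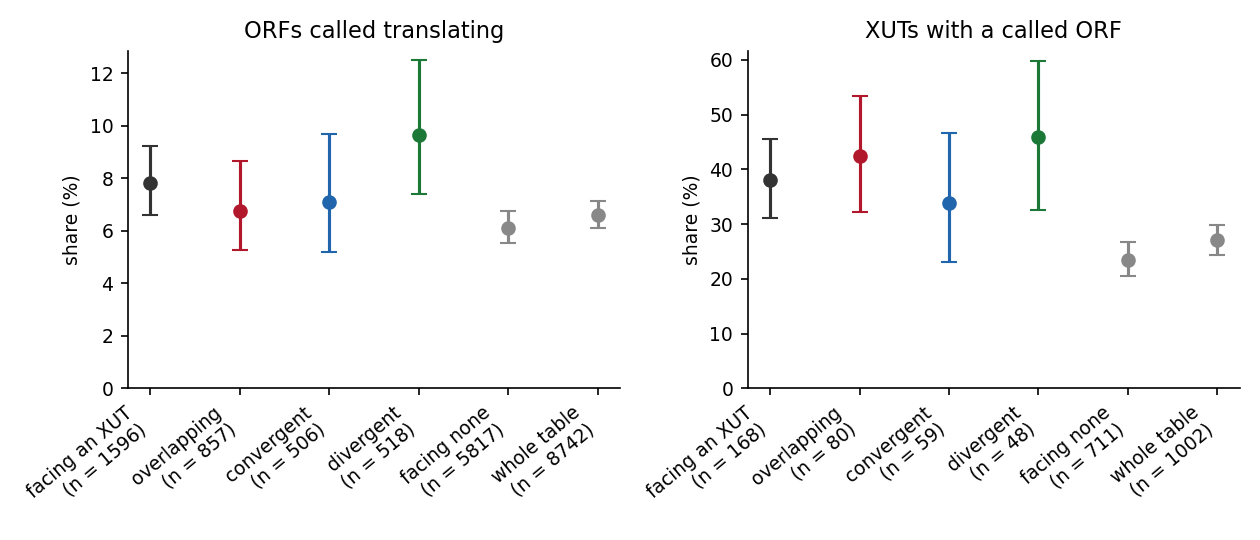
Share of ORFs called translating (left) and of XUTs with at least 1 called ORF (right), in percent, for facing XUTs, the 3 classes of pair, XUTs facing none and the whole table. Points are shares and bars Wilson 95% intervals. Facing XUTs stood at 7.83% of ORFs and 38.1% of XUTs, against 6.12% and 23.5% for those facing none.

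By class, 50 of 518 ORFs were called in divergent pairs (9.65%, Wilson 95% interval 7.40 to 12.5%). In convergent pairs 36 of 506 were called (7.11%, 5.18 to 9.69%), and in overlapping pairs 58 of 857 (6.77%, 5.27 to 8.65%). The intervals of the 3 classes overlapped. With 1 ORF kept per group of overlapping ORFs, overlapping pairs had the highest share, 9.34%, beside 8.81% for divergent and 7.74% for convergent pairs. An XUT with a called ORF was found for 22 of 48 XUTs in divergent pairs (45.8%), 34 of 80 in overlapping pairs (42.5%) and 20 of 59 in convergent pairs (33.9%). With all XUTs removed whose longest ORF reaches 600 nt, the divergent share of ORFs was 6.78%, close to 6.13% for convergent and 5.99% for overlapping pairs. Within each tercile of length over all ORFs, facing XUTs had 2.57% of their ORFs of up to 33 nt called, against 1.82% in XUTs facing none. For ORFs of 36 to 66 nt the shares were 7.21% and 5.08%, and for longer ones 13.9% and 11.8%.

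Called ORFs of facing XUTs had a lower median read count than those of the other XUTs. It was 30 reads (interquartile range 16 to 71), against 44.5 (20 to 164) for called ORFs of XUTs facing none. Their coverage had a median of 1.07 reads per codon against 2. The median phase scores were 0.586 and 0.593. Among the classes, called ORFs of divergent pairs had a median of 52 reads at 2.29 per codon, with a median phase score of 0.642. Those of convergent pairs had 20.5 reads at 0.603 per codon and scored 0.565, and those of overlapping pairs 21 reads at 0.677 per codon and scored 0.537. Of the 50 calls in divergent pairs, XUT0989 held 11, XUT0883 and XUT0978 6 each and XUT0856 4. The divergent medians therefore rest largely on few transcripts. Of the 125 calls, 64 were in ORFs shorter than 100 nt, and 26 had at least 100 reads. The 125 formed 81 groups that shared no base on a strand, and 63 stood alone. The counts and scores of overlapping ORFs may rest on the same reads. The uncalled 99-nt and 189-nt ORFs of XUT0092, in different frames, both had 13 reads, 8 valid codons and a score of 0.313. A single called ORF was found in 36 XUTs, 2 or 3 in 22 and 4 or more in 6, which together held 37 calls.

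Facing XUTs lay over listed genes less often than the other XUTs did, and those in overlapping pairs least often. Genes came from the RefSeq annotation of assembly ASM23734v1, placed by chromosome number and position. The table names no genome build and the gene list holds no strand, so this assumes that both use the same build, and sense and antisense overlaps cannot be told apart. The span of 44 of 168 facing XUTs overlapped a gene (26.2%, Wilson 95% interval 20.1 to 33.3%), against 472 of 711 facing none (66.4%, 62.8 to 69.8%). The difference was -40.2 percentage points (Newcombe 95% interval -47.1 to -32.2), and -41.3 among spans of 300 nt to under 1000 nt, a range chosen after the data were seen. In overlapping pairs 7 of 80 XUTs lay over a gene (8.75%), in convergent pairs 16 of 59 (27.1%) and in divergent pairs 24 of 48 (50%). For 61 of the 98 pairs, and for 36 of the 43 overlapping ones, no gene fell anywhere between the outer ends of the 2 spans. A gene in a stretch shared by both partners would be on the strand of the plus or the minus XUT, and XUTs are noncoding. How far the definition of XUTs keeps genes out of overlapping pairs was not tested, so the low counts there are descriptive.

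The share of ORFs called differed more by gene overlap than by facing another XUT. Among facing XUTs, 118 of the 1300 ORFs clear of any gene were called (9.08%, Wilson 95% interval 7.63 to 10.8%) and 7 of the 296 ORFs over a gene (2.36%, 1.15 to 4.80%). Among XUTs facing none these shares were 10.4% of 2702 ORFs and 2.44% of 3115. In both strata the share was therefore no higher in facing XUTs, although it was higher over all ORFs together. With whole XUTs over no gene kept, a setting chosen after the data were seen, the difference turned round to -4.11 percentage points (Newcombe 95% interval -6.57 to -1.56). These gene-free XUTs include some with an ORF of 600 nt or more, 7 of the 124 facing and 17 of the 239 facing none. With all XUTs holding such an ORF removed, whether over a gene or not, the difference was 2.26 percentage points (1.03 to 3.68). The 2 splits were not combined, so the sign of the difference depends on the setting. Counted by transcript, 53 of 124 facing XUTs over no gene had a called ORF (42.7%), against 83 of 239 facing none (34.7%). Over a gene the shares were 25.0% of 44 and 17.8% of 472. The intervals of these transcript differences, 8.01 and 7.20 percentage points, included 0. The part of gene overlap in the pooled difference was not tested.

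**Figure D2:**
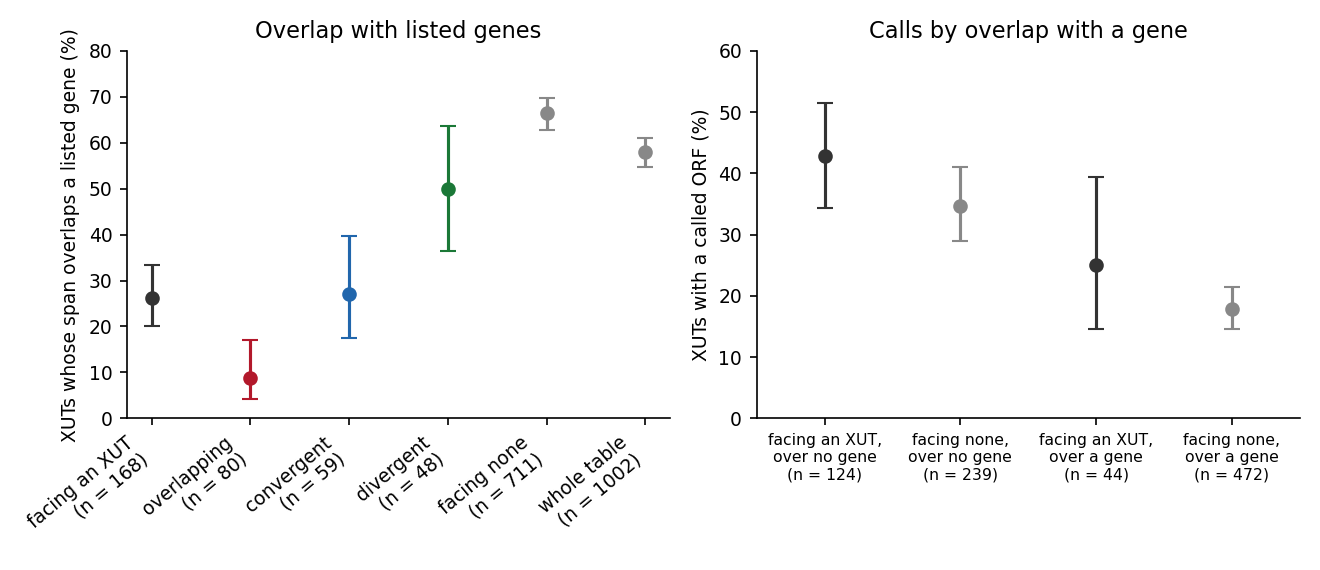
Left, percent of XUTs whose span overlaps a listed gene, by set. Right, percent of XUTs with a called ORF, split by overlap with a gene, for XUTs facing an XUT and facing none. Points are shares with Wilson 95% intervals. Overlap was 8.75% in overlapping pairs and 66.4% in XUTs facing none, and calls were more frequent over no gene in both sets.

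In most pairs the footprints lay mainly on 1 strand. Reads were uneven among facing XUTs in general, with a median of 11.5 per XUT (interquartile range 2 to 52.25). A called ORF was present in 38.1% of them. Whether partners differ more than XUTs put together without regard to position was not tested. Reads of an XUT are summed over its listed ORFs, so reads on overlapping ORFs may count more than once. In XUT0069, 1 ORF covers the whole span with 2393 reads, while the sum is 2946. Reads were found on both partners in 70 of 98 pairs, on 1 partner in 26 and on neither in 2. A called ORF was present on both partners in 15 pairs (15.3%, Wilson 95% interval 9.50 to 23.7%), on 1 partner in 51 and on neither in 32. Among the 82 pairs with at least 10 reads, the partner with more reads held a median of 92.6% of them (interquartile range 76.6 to 99.0%), and at least 90% in 48 pairs. In 5 of these pairs it held less than 60%. In the 51 pairs with calls on 1 partner, that partner had a median of 65 reads and the other a median of 4, with 10 at 0 reads. The partner without a call had more reads in 3 of the 51, all overlapping pairs. Every called ORF of a facing XUT had at least 6 reads and 5 valid codons. The called partner thus tends to have more reads by construction, and the 51 pairs say little about strands.

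**Figure D3:**
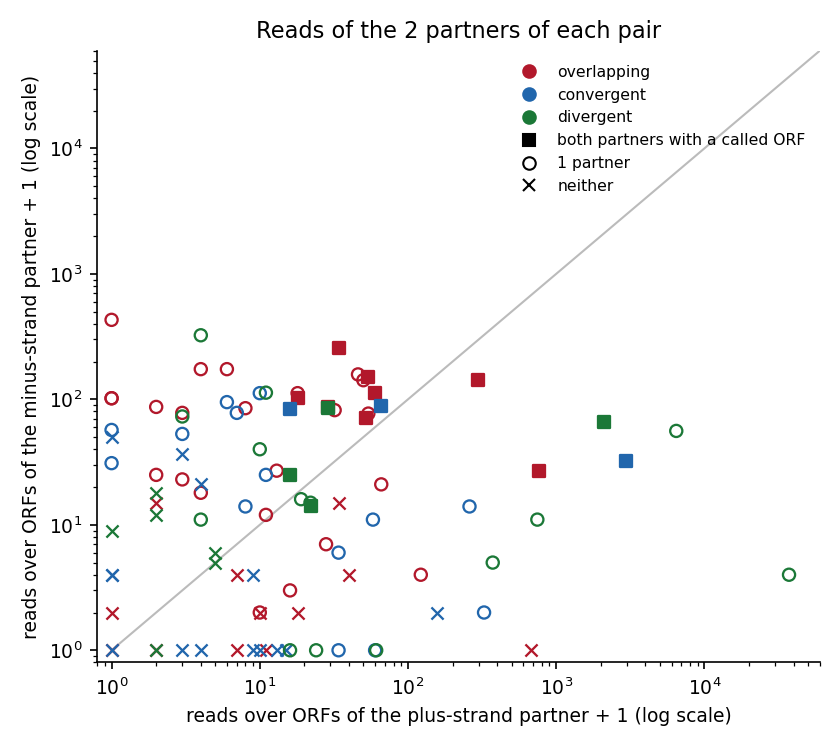
Reads summed over the ORFs of the plus-strand partner (x) and the minus-strand partner (y) in each of the 98 pairs, plus 1, on log scales. Colours give the class of pair, and symbols show whether both partners, 1 or neither had a called ORF. The grey line marks equal reads, and most points lie away from it.

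Of the overlapping pairs, 8 had called ORFs on both strands, and 6 of these 8 were head to head. Among the 12 head-to-head pairs 6 had calls on both partners and 4 on 1. Among the 12 tail-to-tail pairs 2 had calls on both and 7 on 1. By ORF, 32 of 276 were called in head-to-head pairs (11.6%) and 16 of 267 in tail-to-tail pairs (5.99%), beside 6.60% of all ORFs. None of the 19 nested pairs had calls on both, and 12 had calls on 1 partner. By the rule of 3, taken as 3 over 19, the count of 0 allows a share of up to about 15.8% for independent pairs. XUT0660 is the outer partner of both XUT0661 and XUT0662, so not all these pairs are independent. In nested pairs the outer span had the called ORF in 9 cases and the inner in 3. The outer spans listed 284 ORFs, 17 of them called, and the inner ones 133, 5 of them called. All outer counts include XUT0660, with 27 ORFs and 3 calls, once for XUT0661 and again for XUT0662. The outer partner had more reads in 14 of the 19, with a median of 65 reads against 3, and it was longer by construction.

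Calls inside and outside the shared stretch had overlapping intervals. Of the ORFs with any base inside, 33 of 433 were called (7.62%, Wilson 95% interval 5.48 to 10.5%), and of those outside 25 of 424 (5.90%, 4.03 to 8.56%). Reads were present on 37.6% and 33.7% of them. The median length was 48 nt in both places, and in the longest tercile 14.1% of ORFs inside and 12.1% of those outside were called, with reads on 54.5% and 40% of them. Among spans that share at least 100 nt, the shares called were 7.86% of 407 inside (5.62 to 10.9%) and 4.59% of 327 outside (2.80 to 7.43%). Of the 58 called ORFs in overlapping pairs, 30 shared bases with a listed ORF of the other strand and 8 with a called one. These 8 formed 5 combinations in 2 pairs. Among all 340 opposite-strand combinations of listed ORFs that shared bases, the codon boundaries coincided in 114, and were offset by 1 nt in 107 and by 2 nt in 119. Of the 5 with both called, 2 were offset by 1 nt and 3 by 2 nt.

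The pair XUT0526 and XUT0525 on chromosome 3 held the best-covered of these combinations. It lies between RTS3 and a tRNA gene. The 378-nt ORF of XUT0525 (1161279 to 1161656, minus strand) scored 0.429 on 71 reads and 26 valid codons. It covers the whole 108-nt ORF of XUT0526 (1161304 to 1161411, plus strand), which scored 0.358 on 27 reads and 6 valid codons. The score of 0.358 is near the lower limit of a call, and that of 0.429 is below the median of called ORFs in overlapping pairs, 0.537. A second called ORF of XUT0525, 57 nt long (1161386 to 1161442), shared 26 nt with the same ORF and scored 0.571 on 17 reads.

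XUT0241 and XUT0240 on chromosome 1, between RTT105 and MAM1, had 3 called ORFs each, with 59 and 112 reads in all. RTT105 is known from S. cerevisiae as a chaperone of the replication factor RPA, and MAM1 acts in meiotic chromosome attachment there. The 162-nt ORF of XUT0241 (2845190 to 2845351, plus strand) scored 0.638 on 19 reads. It shared 82 nt with the 96-nt ORF of XUT0240 (2845270 to 2845365, minus strand), which scored 0.427 on 17 reads. The 159-nt ORF of XUT0240 (2844944 to 2845102) scored 0.632 on 21 reads and shared bases with 2 called ORFs of XUT0241, of 8 and 11 reads. All 6 calls here rest on 5 to 7 valid codons.

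XUT0275 and XUT0274 on chromosome 2 had the most reads on the weaker partner among overlapping pairs, 298 and 141. They lie next to COT1, which encodes a vacuolar zinc transporter in S. cerevisiae. The best-covered ORFs were the 108-nt ORF of XUT0275 (144660 to 144767, plus strand), scoring 0.497 on 144 reads, and the 63-nt ORF of XUT0274 (144536 to 144598, minus strand), scoring 0.630 on 118 reads. The second is the first ORF from the 5′ end of its XUT. These 2 ORFs do not overlap. A 204-nt ORF of XUT0275 (144686 to 144889) had 89 reads and 22 valid codons but scored 0.253 and was not called.

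XUT0552 and XUT0551 on chromosome 4, next to UGA4, the gamma-aminobutyrate permease gene of S. cerevisiae, had 51 and 70 reads. In each the first ORF was called. The 210-nt ORF of XUT0552 (301991 to 302200, plus strand) scored 0.469 on 32 reads, and the 57-nt ORF of XUT0551 (303053 to 303109, minus strand) scored 0.545 on 24 reads. A 111-nt ORF of XUT0551 (302747 to 302857) scored 0.928 on 10 reads and 6 valid codons. XUT0792 and XUT0791 on chromosome 7 had 33 and 257 reads. Of those of XUT0791, 247 fell on an 87-nt ORF (331600 to 331686, minus strand) that scored 0.547 with 24 of 29 codons valid, outside the shared stretch. The 5 pairs described here were all head to head.

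**Figure D4:**
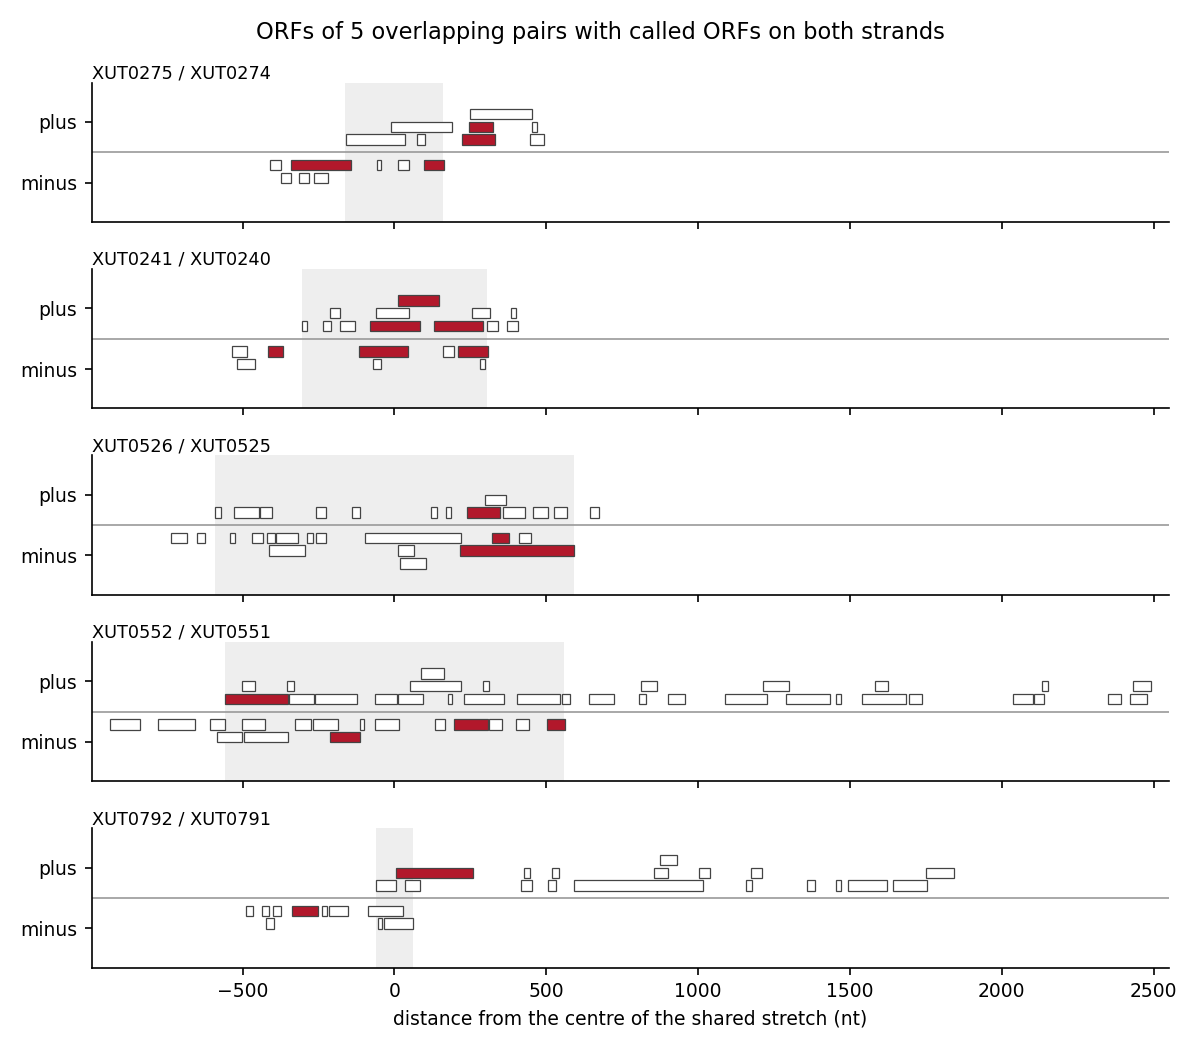
Listed ORFs of the 5 overlapping pairs with called ORFs on both strands and most reads on the weaker partner, by distance in nt from the centre of the shared stretch (grey). Plus-strand ORFs are above the line and minus-strand ORFs below, stacked where they overlap. Red boxes are called ORFs. Called ORFs of opposite strands share bases in XUT0241 / XUT0240 and XUT0526 / XUT0525 alone.

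XUT0738 and XUT0737 on chromosome 6 had the most reads of all overlapping pairs, 768 and 26. The pair lies next to VPS74, whose S. cerevisiae counterpart retains glycosyltransferases in the Golgi. A 1575-nt ORF of XUT0738 (689091 to 690665, plus strand) held 470 reads, scoring 0.440 with 124 valid codons. The 117-nt ORF inside it, in another frame (690001 to 690117), scored 0.753 on 31 reads that may also be counted in the long ORF. This was among the 3 highest scores of called ORFs in overlapping pairs with at least 30 reads. The others were a 339-nt ORF of XUT0660 (chromosome 5, 614280 to 614618, minus strand) at 0.825 on 40 reads, and a 141-nt ORF of XUT0652 (chromosome 5, 581252 to 581392, minus strand) at 0.724 on 70 reads. The longest called ORF of an overlapping pair, 1596 nt in XUT0358 (chromosome 2, 1074751 to 1076346, minus strand), had 46 reads and 26 of 532 codons valid, with a score of 0.410.

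Some ORFs with many reads were not called. In the nested pair XUT0277 and XUT0276 on chromosome 2, next to the nuclear pore gene NUP188, XUT0277 had 672 reads and XUT0276 had 0. A 153-nt ORF of XUT0277 (164899 to 165051, plus strand) held 662 of them, with 16 of 51 codons valid and a score of 0.223, and was not called. In the pair with the longest shared stretch, XUT0327 had 45 reads and no call. Its partner XUT0326 had 157 reads, of which 115 lay on a 15-nt ORF (728883 to 728897, minus strand) with 4 of 5 codons valid, which is too few for a call. The called ORF of XUT0326, of 171 nt (729464 to 729634), scored 0.333 on 29 reads. This pair neighbours RLI1, which encodes the ribosome recycling ATPase of S. cerevisiae. Over all facing XUTs, 147 ORFs reached 5 valid codons and 22 of these were not called, leaving 85.0% called (Wilson 95% interval 78.4 to 89.9%). In XUTs facing none the share was 88.1% of 404. By class it was 96.2% of 52 ORFs in divergent, 83.7% of 43 in convergent and 80.6% of 72 in overlapping pairs. The called divergent ORFs lie largely in a few XUTs.

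Convergent pairs had called ORFs on both partners in 3 of 31. XUT0069 and XUT0070 on chromosome 1, 131 nt apart, had 2946 and 31 reads. The 1944-nt ORF of XUT0069 (758839 to 760782, plus strand) was the longest called ORF of any facing XUT, scoring 0.578 on 2393 reads with 320 of 648 codons valid. The called ORF of XUT0070, of 105 nt (760914 to 761018, minus strand), had 11 reads and 6 valid codons. XUT0668 and XUT0670 on chromosome 5 lay 58 nt apart and had 65 and 88 reads, which is the most even split of the 3. Their called ORFs were short or sparse, with 27 and 10 reads in XUT0668 and 6 in XUT0670. XUT0657 and XUT0658, also on chromosome 5, had 15 and 83 reads. The called ORFs had 8 reads on 6 valid codons in XUT0657 and 26 reads on 12 valid codons in XUT0658.

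Of the 3 convergent pairs with most reads, the other 2 had calls on 1 partner. XUT0891 and XUT0892 on chromosome 8, next to GCY1, a reductase gene in S. cerevisiae, had 325 reads and 1 read. The first ORF of XUT0891, of 102 nt (401889 to 401990, plus strand), scored 0.680 on 253 reads with 25 of 34 codons valid. An overlapping 48-nt ORF in another frame (401956 to 402003) had 72 reads and scored 0.856, the highest among called ORFs of convergent pairs with at least 30 reads. An 81-nt ORF of XUT0753 (chromosome 6, 757527 to 757607, minus strand) scored 0.734 on 47 reads. XUT0520 and XUT0521 on chromosome 3 had 259 and 13 reads. A 60-nt ORF of XUT0520 (1064321 to 1064380, plus strand) scored 0.367 on 114 reads, and an uncalled 66-nt ORF (1064367 to 1064432) scored 0.178 on 108 reads. The pair ranking after these, XUT0958 and XUT0959 on chromosome 9, had 156 reads and 1 read and no call. A 39-nt ORF of XUT0958 (491344 to 491382, plus strand) held 124 reads on 3 valid codons. The minus-strand XUT0864 faced 3 convergent XUTs, XUT0861, XUT0862 and XUT0863, and with 3 reads of its own it had no call, nor did they.

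Summed over listed ORFs, some of which overlap, divergent pairs held 48021 of the 57059 reads of facing XUTs, most of them in a single transcript. XUT0250 on chromosome 1 had 37230 reads (65.2% of all reads of facing XUTs), against 3 reads in its partner XUT0249, 971 nt away. Without XUT0250, divergent pairs had 10791 reads. Its 237-nt ORF (2909188 to 2909424, plus strand) accounted for 35470 reads, with 449 reads per codon. XUT0249 overlaps VMA13, which encodes a subunit of the vacuolar proton ATPase in S. cerevisiae, and XUT0250 lies between VMA13 and ERV2, a thiol oxidase gene of the endoplasmic reticulum there.

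XUT0989 and XUT0988 on chromosome 10, near ERP1, had 6456 and 55 reads. Of the 15 ORFs of XUT0989, 11 were called. The 1602-nt ORF (185180 to 186781, plus strand) scored 0.607 on 5228 reads with 342 of 534 codons valid. The partner had 2 ORFs with enough valid codons and no call. The 267-nt ORF of XUT0988 (183978 to 184244, minus strand) had 38 reads and 18 valid codons at a score of 0.176, and the 75-nt ORF had 17 reads at 0.207.

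XUT0883 and XUT0882 on chromosome 8, 173 nt apart, were the closest divergent partners and had 2091 and 65 reads. XUT0882 overlaps NCAS0H01590, and XUT0883 lies between that gene and QNS1, the NAD synthetase gene. The 1167-nt ORF of XUT0883 (306176 to 307342, plus strand) scored 0.556 on 1356 reads with 189 of 389 codons valid. The called ORF of XUT0882, of 42 nt (305916 to 305957, minus strand), held 60 of that XUT's reads on 5 valid codons and scored 0.577. A 24-nt ORF inside the long one (306228 to 306251) scored 0.938 on 66 reads. It lies in another frame, and its reads may also be counted in the long ORF. Among called ORFs of divergent pairs with at least 30 reads, the 2 higher scores were both in XUT0978 on chromosome 10, at 0.991 on 36 reads (53359 to 53406, plus strand) and 0.958 on 42 reads (53366 to 53431). These 2 ORFs overlap each other and lie inside a 546-nt called ORF with 425 reads. The frames of these ORFs all differ, and the same reads may be counted in each. All 6 ORFs of XUT0978 were called.

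The other 3 divergent pairs with calls on both partners had few reads. XUT0357 and XUT0355 on chromosome 2 had 28 and 84 reads, XUT0657 and XUT0655 on chromosome 5 had 15 and 24, and XUT0909 and XUT0908 on chromosome 8 had 21 and 13. The longest called ORF of a divergent pair, 1683 nt in XUT0655 (585739 to 587421, minus strand), had 16 reads and 10 of 561 codons valid, at a score of 0.478. XUT0657 and XUT0660 were each in 3 pairs, like XUT0864. XUT0657 lay in a run of transcripts between NCAS0E02940 and ECM21 in which it faced XUT0655, XUT0656 and XUT0658. XUT0660 had 101 reads and 3 called ORFs. It faced XUT0659, with 17 reads and 1 call, and XUT0661 and XUT0662, with 0 reads each.

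Facing XUTs held 7 ORFs of 600 nt or more, all called, in XUT0059, XUT0069, XUT0358, XUT0655, XUT0738, XUT0883 and XUT0989. Over the whole table, 29 of 30 such ORFs were called, and in XUTs facing none 20 of 21. The 7 together had 9817 reads, with 16 to 5228 per ORF and scores of 0.410 to 0.607. None overlapped a listed gene, and all 7 lay between genes whose locus tags skip a number, as did all 30 in the table. Of the 117 facing XUTs over no gene and without a long ORF, 15 lay between such genes, against 5 of 222 XUTs facing none and without a long ORF. Some partners lie between the same genes as the XUT they face, so these counts are not independent.

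Calls lay towards the 5′ end in every class. Within 250 nt of the first listed base, 25 of 163 ORFs were called in divergent pairs (15.3%, Wilson 95% interval 10.6 to 21.7%), 33 of 279 in overlapping pairs (11.8%, 8.55 to 16.1%) and 21 of 189 in convergent pairs (11.1%, 7.38 to 16.4%). In XUTs facing none the share was 198 of 2441 (8.11%, 7.09 to 9.26%), beside 9.16% over the whole table. At 1000 nt or more it was 2.53% of 158 ORFs in divergent, 1.72% of 232 in overlapping and 2.88% of 104 in convergent pairs. The share there was 3.94% of 888 in XUTs facing none and 4.29% over the whole table. The median ORF length was 48 nt in both bins for facing XUTs as a whole. Among XUTs with at least 2 ORFs, the first ORF was called in 29 of 162 facing XUTs (17.9%, 12.8 to 24.5%) and in 78 of 673 facing none (11.6%, 9.39 to 14.2%). Over the whole table it was called in 13.5%. In the XUTs left out at chromosome ends it was called in 22 of 119 (18.5%), so the higher share is not particular to facing XUTs. None of these shares was split by gene overlap, which held for 18.5% of ORFs of facing XUTs and 53.5% of those facing none. The first ORF of a divergent XUT is the one nearest its partner, and it was called in 11 of 47. That of a convergent XUT starts farthest from its partner, and it was called in 6 of 56. The 6 include the 1944-nt ORF of XUT0069, which covers its whole span and so also reaches the edge that faces the partner. By distance from the edge that faces the partner, with an ORF counted once for each pair of its XUT, convergent shares were 5.56% of 180 under 250 nt, 8.33% of 228 from there to under 1000 nt and 6.36% of 110 beyond.

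**Figure D5:**
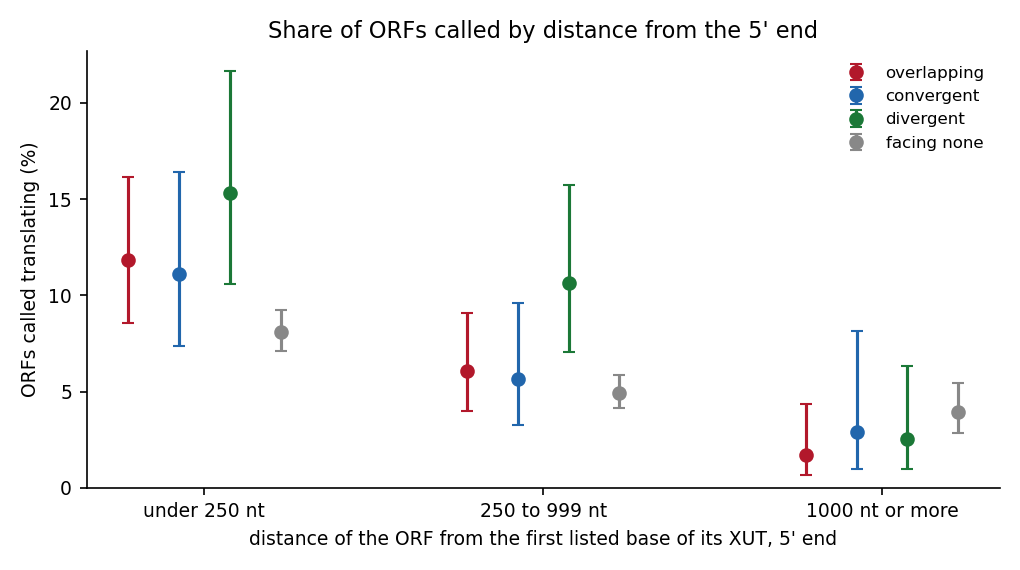
Percent of ORFs called translating by distance of the ORF from the first listed base of its XUT, for the 3 classes of pair and for XUTs facing none. Points are shares with Wilson 95% intervals. In divergent pairs the share was 15.3% under 250 nt and 2.53% at 1000 nt or more.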

How the data were processed

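Trim Galore and HISAT2 are the trimming and alignment tools listed in the submitters' processing notes. Not given in the sources used here are their versions, the genome build, read offsets and the scoring program. Per the file headers, a merged table holds all values. The deposited read count per ORF is a raw count, and read density is a coverage signal that the authors gave as reads per codon (count over length in codons, checked in every row). The deposited phase score is a fraction from 0 to 1. The read counts sum to 212510 over the ORFs of XUTs, where reads on overlapping ORFs may count more than once. No total per library is given.

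Members, lists and settings were chosen with earlier results of these data known. The ORFs and pairs named follow a rule: per class, the 3 pairs with most reads, up to 5 with calls on both partners (by the reads of the weaker partner), the 3 highest phase scores with at least 30 reads and the longest called ORF, plus the longest shared stretches, called ORFs of opposite strands that share bases, and XUTs with most partners. A few uncalled ORFs and partners were named after their values were seen. Shares have Wilson 95% intervals and differences Newcombe intervals (Python 3.11.15, scipy 1.17.1, pandas 2.3.3, numpy 2.4.6). No test was run, since ORFs are not replicates. Pair finding was tested on simulated data. A comparison of upf1 with wild type was not run because no column names a library. Sequences were not used here.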

Additional observations from a re-analysis of the deposited data

How the results depend on the processing

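No paired analysis was possible because the values are merged and name neither library nor strain. For the same reason no replicate could be left out. The split by listed genes and the span range were chosen after the data were seen. The share of ORFs called in facing XUTs, 7.83%, fell to 3.70% where calls needed a score of 0.6 or more (overlapping 2.68%, convergent 2.77%, divergent 5.79%), 2.82% with at least 10 valid codons (2.22%, 2.37%, 3.67%) and 4.01% with at least 30 reads (2.22%, 2.96%, 6.56%). It was 66.9% of ORFs with at least 10 reads (60.7%, 59.6%, 88.5%). With all XUTs removed whose longest ORF reaches 600 nt it was 6.13% (divergent 6.78%). For XUTs over no listed gene it was 10.2% (divergent 20.3%), and over a listed gene 2.87% (1.69%, 3.57%, 2.57%). With gaps of up to 2000 nt the divergent share was 6.99%. With 1 ORF per group of overlapping ORFs the overlapping share was 9.34%, above the divergent share of 8.81% and the convergent share of 7.74%. The difference from XUTs facing none, 1.71 percentage points, was 0.194 with at least 30 reads, 0.260 with gaps of up to 2000 nt and 0.316 for overlapping spans only. It turned negative with at least 10 valid codons (-0.0342), among ORFs with at least 10 reads (-0.409), over no listed gene (-4.11) and over a listed gene (-0.135). Under the other 6 alternatives this difference ran from 0.654 to 3.15 percentage points. The highest value, 3.15 (1.30 to 5.28), came with 1 ORF per group of overlapping ORFs. Removal of all XUTs whose longest ORF reaches 600 nt gave 2.26 (1.03 to 3.68). The share of facing XUTs with a called ORF, 38.1%, was 23.8% at a score of at least 0.6, 16.1% with at least 10 valid codons, 17.3% with at least 30 reads and 25.0% over a listed gene. Its difference from XUTs facing none stayed positive under all 10 alternatives run, but was 5.38 (-0.00991 to 12.0) and 4.88 (-0.732 to 11.7) percentage points with at least 10 valid codons and at least 30 reads, where its interval included 0, as it did over no listed gene and over a listed gene. Pairs with calls on both partners, 15 in all, numbered 4 at a score of at least 0.6, 1 with at least 10 valid codons, 2 with at least 30 reads and 8 for overlapping spans only. The shares inside and outside the shared stretch stayed within their intervals under both alternatives, at 7.86% and 4.59% for spans that share at least 100 nt. Most calls in facing XUTs rest on few valid codons and reads, which limits every count of pairs above.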
